A study of Mus musculus with 9 samples.

Results

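Osteoclasts form when myeloid precursors fuse under RANKL, and 8 genes with a reported restraining role in that process were read out here in cultured mouse osteoclasts. The genes are Irf8, Irf4, Bcl6, Rbpj, Id1, Id2, Id3 and Zfp36l1. They were taken by symbol, as 8 of the 54532 gene identifiers of the table of raw read counts, and each matched 1 identifier. All 8 had enough reads to be tested, as did 14264 genes in all. The cultures came from marrow flushed out of the long bones of mice. Non-adherent cells left after a night in 5 ng/ml M-CSF were then grown in 20 ng/ml M-CSF plus 10 ng/ml RANKL, and RNA was taken on day 3. KO_4OI cells carried the genotype label Acod1 KO and were given 50 µM of 4-octyl-itaconate on day 1. This compound, written 4-OI below, is a derivative of itaconate that enters cells. KO_CTR cells carried the same genotype label and received no compound. WT_CTR cells were labelled WT and also received none. Each group had 3 libraries. Acod1 encodes the enzyme that makes itaconate. 4-OI was given only to cells labelled Acod1 KO, so the genotype label and the compound change together between KO_4OI and WT_CTR. The labels do not state the strain, the age, the deleted part of Acod1 or whether the cultures of a group came from separate mice. What the p-values measure is therefore the variation among these libraries, part of which may be technical.

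IRF8 and BCL6 are transcription factors that hold down NFATc1 target genes in precursors, and RANKL normally relieves this hold through BLIMP1, the product of Prdm1, which represses both Irf8 and Bcl6. RBPJ is the DNA-binding partner of the Notch receptors and limits osteoclast formation under inflammatory signals. ID proteins have no DNA-binding region of their own and block basic helix-loop-helix factors by pairing with them. Zfp36l1 does not encode a transcription factor, since its product binds AU-rich elements in mRNA and brings about their decay, and IRF4 has been described as a helper of NFATc1 induction as well as a relative of IRF8, so the name of brake fits both of these less closely. Whether any of the 8 acted as a brake in these cultures was not tested.

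Library totals ran from 24830149 to 35143629 reads. Acod1, the targeted gene, was not lower in the libraries labelled KO. It had 135, 168 and 131 reads in KO_4OI, 60, 86 and 47 reads in KO_CTR and 24, 27 and 55 reads in WT_CTR. The counts do not show which exons these reads cover, so genotype is used here as a label only. Xist, expressed from the inactive X in female cells, had 8764 reads in KO_4OI replicate 3, 10715 in WT_CTR replicate 2 and 0 in the other 7 libraries. For the 8 genes, values without these 2 libraries are given where they end a call. Markers of osteoclasts were read in every library. Ctsk, the main collagen-degrading protease of these cells, stood at 3187 CPM or more and Acp5, tartrate-resistant acid phosphatase, at 2946 CPM or more. In KO_4OI, however, 13 of 14 osteoclast markers were lower than in KO_CTR. Car2, for example, had 10.1 to 12.1 CPM in KO_4OI and 124 to 162 CPM in KO_CTR. The name osteoclast is therefore used as the label gives it. CPM, the usual scaling of a gene's reads to those of its library, were computed with library sizes adjusted by TMM.

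KO_4OI differed from KO_CTR in 6 of the 8 genes. Id1, Rbpj, Irf8 and Bcl6 were higher in KO_4OI, while Zfp36l1 and Irf4 were lower, and Id2 and Id3 did not pass the threshold. The threshold here and below is an adjusted p of 0.05 by edgeR (quasi-likelihood F test, p-values adjusted by Benjamini-Hochberg across all genes tested). Of all genes tested, 27.3% passed it in this comparison, 13.0% as higher and 14.2% as lower in KO_4OI. The libraries of KO_4OI and KO_CTR did not overlap for the same 6 genes, against 39.3% of all genes tested. The median log2 fold change was 0.56 over the 8 genes and 0.02 over all genes tested. The 8 were not chosen from these values by rule, but they were proposed with results of these data in view, so the counts describe them and carry no test of the set. The comparisons share libraries with each other, so their values are set side by side and not correlated.

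**Figure D1:**
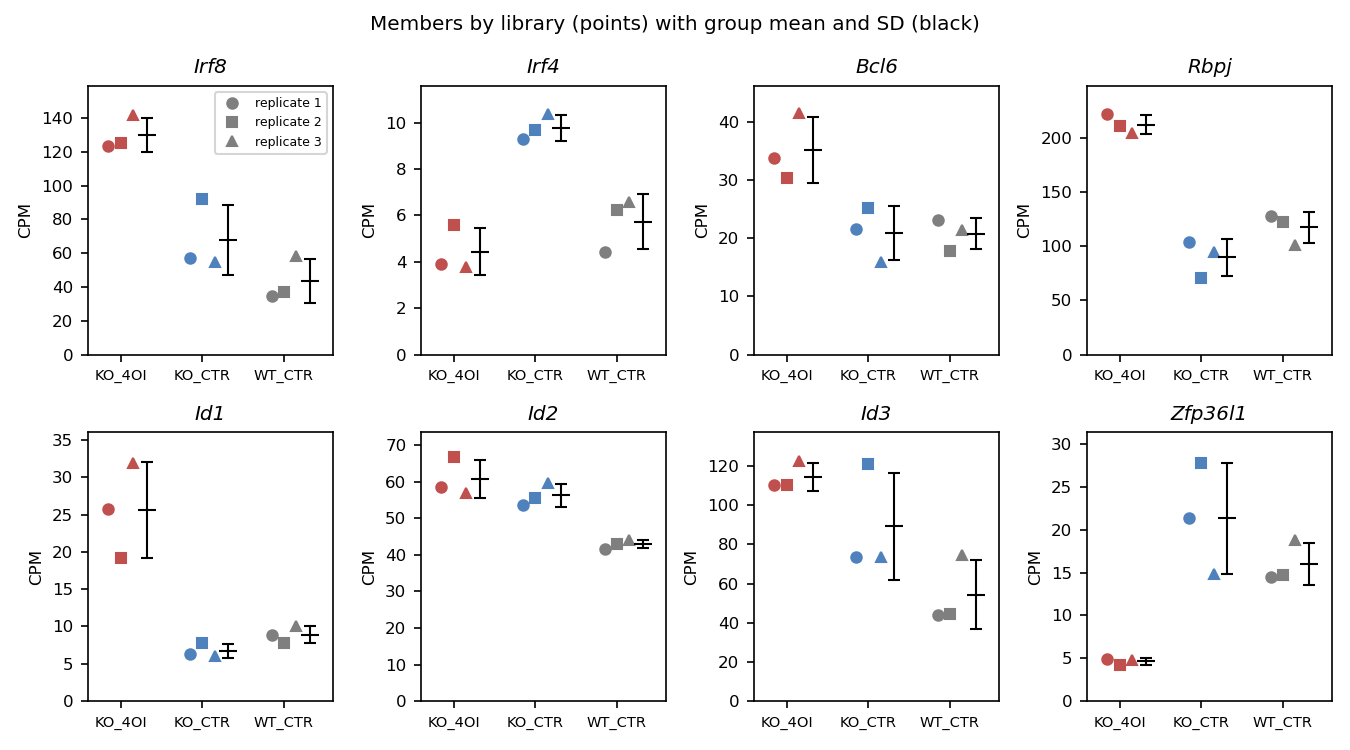
CPM of each of the 8 genes (vertical axes, from 0) in the 9 libraries, with KO_4OI left, KO_CTR in the middle and WT_CTR right; circles, squares and triangles are replicates 1, 2 and 3, and black bars are group means with SD. All KO_4OI points lie above all others for Irf8, Bcl6, Rbpj and Id1 and below all others for Zfp36l1.

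**Figure D2:**
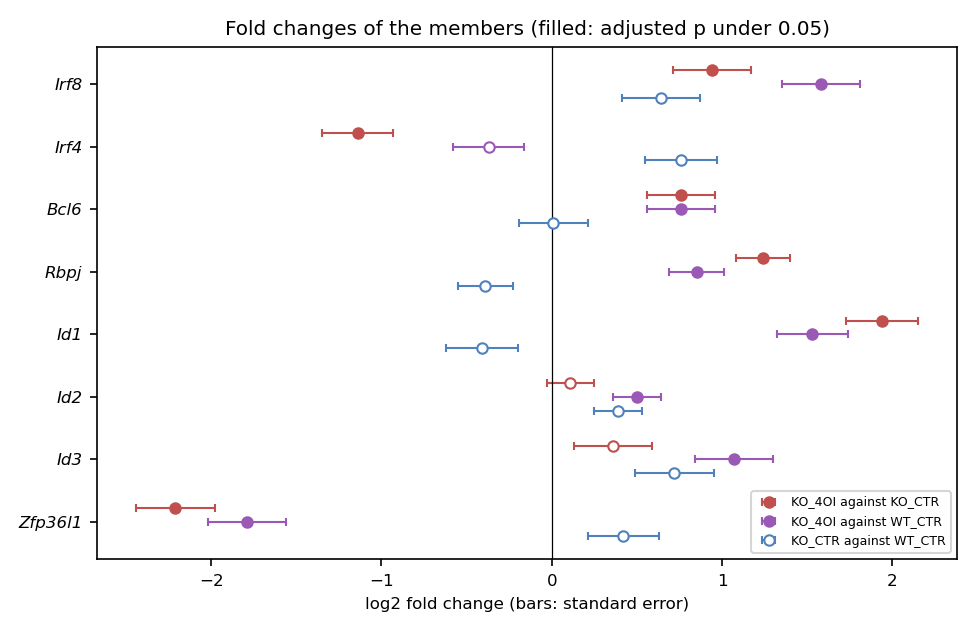
Log2 fold change (horizontal axis) of each gene in KO_4OI against KO_CTR, KO_4OI against WT_CTR and KO_CTR against WT_CTR, with bars of 1 standard error and filled points for an adjusted p under 0.05. Zfp36l1 has the lowest value, -2.21, and Id1 the highest, 1.94, both in KO_4OI against KO_CTR, and none of the points for KO_CTR against WT_CTR is filled.

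Irf8 (ENSMUSG00000041515, mm10 chr8:120736358-120756694, plus strand) encodes interferon regulatory factor 8, which keeps precursors on a macrophage or dendritic path. It had 123, 125 and 142 CPM in KO_4OI, 57.0, 91.9 and 54.6 CPM in KO_CTR and 34.8, 37.2 and 58.4 CPM in WT_CTR. All 3 KO_4OI libraries lay above the other 6, while KO_CTR and WT_CTR overlapped. The means were 130.1 ± 10.1 CPM in KO_4OI, 67.8 ± 20.8 CPM in KO_CTR and 43.5 ± 13.0 CPM in WT_CTR (SD, n = 3 each). Irf8 rose 1.92-fold in KO_4OI over KO_CTR (log2 fold change 0.94, SE 0.23, adjusted p = 0.00778 by edgeR) and 2.99-fold over WT_CTR (log2 fold change 1.58, SE 0.23, adjusted p = 0.000239). The sequence before its start is shown together with those of Bcl6 below, because these are the genes that rose among the members BLIMP1 is known to repress, and with that of Zfp36l1, which fell.

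Irf4 (ENSMUSG00000021356, mm10 chr13:30749226-30766976, plus strand), the closest relative of Irf8, went the other way. It had 3.92, 5.60 and 3.78 CPM in KO_4OI, 9.29, 9.67 and 10.4 CPM in KO_CTR and 4.40, 6.23 and 6.58 CPM in WT_CTR. KO_CTR stood above both other groups without overlap, and KO_4OI and WT_CTR overlapped. Irf4 fell to 0.454-fold of KO_CTR in KO_4OI (log2 fold change -1.14, SE 0.21, adjusted p = 0.00137 by edgeR). Against WT_CTR the log2 fold change was -0.37 (SE 0.21, adjusted p = 0.244), short of the threshold. The ratio of Irf8 to Irf4 per kb of exon was 21.1 ± 5.26 in KO_4OI, 4.84 ± 1.55 in KO_CTR and 5.27 ± 1.03 in WT_CTR (SD, n = 3 each), given as a description. Its lowest KO_4OI value, 15.6, lay above its highest value in the other libraries, 6.60.

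Of the 9 interferon regulatory factors 8 were tested. In KO_4OI against KO_CTR 2 rose and 4 fell, members included. Irf7, which amplifies type I interferon, fell by 3.23 on the log2 scale (SE 0.35), Irf9, the DNA-binding part of the interferon-activated complex ISGF3, fell by 1.62 (SE 0.19) and Irf1 fell by 0.86 (SE 0.17). Irf5, a factor of inflammatory macrophages, rose with Irf8, by a log2 fold change of 0.73 (SE 0.20, adjusted p = 0.0157). The Irf5 call was lost without KO_CTR replicate 1 (adjusted p = 0.0717), KO_CTR replicate 3 (adjusted p = 0.0594) or KO_4OI replicate 3 (adjusted p = 0.0537), and without the libraries with Xist reads (adjusted p = 0.0693), which left Irf8 as the 1 member of the family that rose. The median log2 fold change of the family was -0.61.

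Of 8 DNA-binding partners of IRF8 and IRF4, 3 rose and 2 fell. Batf3, which IRF8 works with in dendritic cells, had 2.49, 3.14 and 3.75 CPM in KO_4OI, 1.12, 1.13 and 1.08 CPM in KO_CTR and 0.232, 0.362 and 0.542 CPM in WT_CTR. It rose over KO_CTR by a log2 fold change of 1.49 (SE 0.28, adjusted p = 0.00163 by edgeR). Ikzf1 rose by 0.54 (SE 0.14) and Batf by 0.57 (SE 0.19), and Batf2 fell by 1.28 (SE 0.29). The other that fell was Spi1, at 566, 448 and 677 CPM in KO_4OI and 761, 1041 and 661 CPM in KO_CTR, with overlap. Spi1 is named after its values were seen. The Ikzf1 call was lost without KO_4OI replicate 1 (adjusted p = 0.0586), and the Batf call without any one of KO_4OI replicates 1 and 3, KO_CTR replicates 1 and 3 and WT_CTR replicate 2 (adjusted p from 0.0582 to 0.143). The count of 3 that rose was 1 without KO_4OI replicate 1, and 1 also without the libraries with Xist reads. The count of 2 that fell was 1 without any one of WT_CTR replicates 1 and 2, KO_CTR replicates 1 and 2, and KO_4OI replicates 1 and 2.

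Bcl6 (ENSMUSG00000022508, mm10 chr16:23965052-23988852, minus strand) encodes a zinc finger repressor that holds down osteoclast genes such as those of fusion and resorption. It had 33.9, 30.4 and 41.5 CPM in KO_4OI, 21.6, 25.2 and 15.9 CPM in KO_CTR and 23.1, 17.9 and 21.3 CPM in WT_CTR. KO_4OI lay above all 6 other libraries, which overlapped with each other. Bcl6 rose 1.69-fold over KO_CTR (log2 fold change 0.76, SE 0.20, adjusted p = 0.0113 by edgeR) and 1.70-fold over WT_CTR (log2 fold change 0.76, SE 0.20, adjusted p = 0.0113). The rise over KO_CTR was the smallest of the 4. Without the 2 libraries with Xist reads the calls were lost, at a log2 fold change of 0.62 over KO_CTR (adjusted p = 0.0612) and 0.53 over WT_CTR (adjusted p = 0.168). The call over WT_CTR was also lost without WT_CTR replicate 2 (log2 fold change 0.66, adjusted p = 0.0655).

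Prdm1, whose product BLIMP1 represses Irf8 and Bcl6, had 32.6, 22.1 and 31.5 CPM in KO_4OI, 108, 95.1 and 90.1 CPM in KO_CTR and 114, 108 and 90.5 CPM in WT_CTR. It fell by 1.76 on the log2 scale in KO_4OI against KO_CTR (SE 0.17, adjusted p = 8.39e-06 by edgeR). Every KO_4OI library was below every other library. Per kb of exon, the ratio of Irf8 to Prdm1 was 3.68 ± 0.753 in KO_4OI, 0.554 ± 0.184 in KO_CTR and 0.342 ± 0.147 in WT_CTR. The ratio of Bcl6 to Prdm1 was 1.03 ± 0.148 in KO_4OI, 0.178 ± 0.0380 in KO_CTR and 0.168 ± 0.0290 in WT_CTR (SD, n = 3 each). Both ratios were below 1 in all 6 libraries without 4-OI. In KO_4OI the ratio of Irf8 to Prdm1 was 2.99 or more. That of Bcl6 to Prdm1 was 0.866, 1.14 and 1.10 there, so 1 library with 4-OI was below 1 too. Whether the fall of Prdm1 bears on Irf8 or Bcl6 was not tested. Of 11 corepressors and relatives of BCL6 tested, 1 passed, which was Bcor with a fall of 0.88 on the log2 scale (SE 0.19, adjusted p = 0.00353). That list held 2 that fell without KO_CTR replicate 3 or KO_4OI replicate 3, and 3 that rose without KO_CTR replicate 2 or 1 that rose without KO_4OI replicate 2.

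Shown next are the 250 bases before RefSeq transcript starts of GRCm38.p6, each 5′ to 3′ on the strand of its gene. Capitals mark matches, on either strand, to 6 short motifs that were searched. They are TTCNNNGAA, the GAS form bound by STAT factors and similar to the site BCL6 itself binds, GAAANNGAA, an ISRE core bound by IRFs, TGANNNNGC, a loose form of the core of the antioxidant response element bound by NRF2 with small MAF proteins, TGGGAA, bound by RBPJ, GGCGCC, bound by SMAD1 and SMAD5, and AGNGAAAG, close to the BLIMP1 site. The loose form, called the antioxidant core below, leaves free the base after TGA, which is C in the usual core. Many of its matches are therefore not that core. Of the 8 genes 7 had an entry in the promoter table.
Irf8, first start, chr8:120736108-120736357, plus strand: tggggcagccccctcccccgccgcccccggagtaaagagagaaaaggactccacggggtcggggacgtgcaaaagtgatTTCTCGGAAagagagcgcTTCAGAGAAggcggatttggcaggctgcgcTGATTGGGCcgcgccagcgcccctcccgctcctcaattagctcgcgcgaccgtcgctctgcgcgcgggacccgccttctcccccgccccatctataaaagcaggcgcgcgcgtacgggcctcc
Bcl6, first start, chr16:23988853-23989102, minus strand: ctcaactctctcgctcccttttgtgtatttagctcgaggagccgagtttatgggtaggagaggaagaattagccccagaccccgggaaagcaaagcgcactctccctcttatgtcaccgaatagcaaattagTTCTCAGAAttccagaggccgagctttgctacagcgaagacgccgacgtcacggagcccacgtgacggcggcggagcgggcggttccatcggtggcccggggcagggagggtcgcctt
Bcl6, second start, chr16:23981284-23981533, minus strand: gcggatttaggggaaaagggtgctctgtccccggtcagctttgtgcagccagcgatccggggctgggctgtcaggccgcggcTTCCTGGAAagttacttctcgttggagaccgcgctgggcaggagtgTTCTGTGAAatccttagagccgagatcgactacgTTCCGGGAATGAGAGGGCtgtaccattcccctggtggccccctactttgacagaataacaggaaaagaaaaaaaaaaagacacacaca
Zfp36l1, chr12:80113014-80113263, minus strand: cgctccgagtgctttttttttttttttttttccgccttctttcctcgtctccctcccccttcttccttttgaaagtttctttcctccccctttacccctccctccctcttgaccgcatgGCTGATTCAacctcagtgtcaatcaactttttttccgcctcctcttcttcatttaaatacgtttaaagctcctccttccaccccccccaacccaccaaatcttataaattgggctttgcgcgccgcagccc

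The window before the first Irf8 start held the GAS form at positions -171 and -153 from the start and the antioxidant core at -123. Irf8 has a second RefSeq start, not shown, whose window held no GAS form, the antioxidant core at -25 and the RBPJ site at -242. That match at -25 was the only antioxidant core listed here with C after TGA. The GAS form was at -118 before the first Bcl6 start, and at -168, -122 and -88 before the second, where the capitals run on into an antioxidant core at -79. The Zfp36l1 window held the antioxidant core at -131, read on the other strand, and no GAS form. The antioxidant core was also in the windows, not shown, of Irf4 (at -77), Id2 (at -249) and Id3 (at -246 and -210). The RBPJ site was in the windows of Rbpj itself, and the SMAD element in that of Id2. Among 32851 promoter windows of this length, the GAS form was found in 7.02%, the antioxidant core in 35.2%, the ISRE core in 7.13%, the RBPJ site in 21.6%, the SMAD element in 9.59% and the BLIMP1-like core in 7.30%. The ISRE core and the BLIMP1-like core were in none of the windows of these 7 genes. A match describes letters in a window and says nothing of binding in these cells.

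Rbpj (ENSMUSG00000039191, mm10 chr5:53466152-53657362, plus strand) had 222, 210.4 and 204 CPM in KO_4OI, 104, 70.9 and 94.6 CPM in KO_CTR and 128, 123 and 101 CPM in WT_CTR. KO_4OI was above all other libraries, and KO_CTR and WT_CTR overlapped by their nearest libraries. Rbpj rose 2.36-fold over KO_CTR (log2 fold change 1.24, SE 0.16, adjusted p = 8.98e-05 by edgeR) and 1.81-fold over WT_CTR (log2 fold change 0.85, SE 0.16, adjusted p = 0.0015). Its processed copy Rbpj-ps3 held 157 reads over the 9 libraries together.

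Of 23 tested genes of the Notch pathway 4 rose and 3 fell in KO_4OI against KO_CTR, with a median log2 fold change of 0.01. Of all genes tested 13.0% rose and 14.2% fell. The receptor Notch1 had 24.3, 24.7 and 26.5 CPM in KO_4OI, 11.6, 15.9 and 9.0 CPM in KO_CTR and 9.69, 8.93 and 13.1 CPM in WT_CTR. It rose over KO_CTR by a log2 fold change of 1.05 (SE 0.22, adjusted p = 0.00272 by edgeR), with all KO_4OI libraries above the rest. Dtx3, a member of the deltex family, rose by 0.86 (SE 0.19), while its relative Dtx4 fell by 0.71 (SE 0.16). The ligand Jag2, at 1.03 to 1.40 CPM in KO_4OI and 1.95 to 3.26 CPM in KO_CTR, fell by 1.05 (SE 0.28), a call lost without KO_4OI replicate 1 (adjusted p = 0.0708). Hes1, a classic target of Notch and RBPJ, was read at 0.187 to 0.477 CPM in KO_4OI, 0.325 to 0.419 CPM in KO_CTR and 0.232 to 0.485 CPM in WT_CTR, or 5 to 17 reads a library. Hes1 is named after its values were seen. Without KO_4OI replicate 2 the number of pathway genes that rose was 2.

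Id1 (ENSMUSG00000042745, mm10 chr2:152736251-152737410, plus strand), a target of BMP signalling through SMAD1 and SMAD5, had 25.7, 19.2 and 32.0 CPM in KO_4OI, 6.25, 7.79 and 6.07 CPM in KO_CTR and 8.84, 7.74 and 10.1 CPM in WT_CTR. The lowest KO_4OI library lay well above the highest of the other 6. Id1 rose 3.83-fold over KO_CTR (log2 fold change 1.94, SE 0.21, adjusted p = 1.99e-05 by edgeR) and 2.88-fold over WT_CTR (log2 fold change 1.53, SE 0.21, adjusted p = 0.000123). These were the largest rise over KO_CTR among the 8 genes and, after Irf8, the second largest over WT_CTR.

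Id2 (ENSMUSG00000020644, mm10 chr12:25093799-25097140, minus strand), also a factor of dendritic and innate lymphoid cells, had 58.7, 66.8 and 56.9 CPM in KO_4OI, 53.6, 55.6 and 59.7 CPM in KO_CTR and 41.7, 43.1 and 44.0 CPM in WT_CTR. KO_4OI and KO_CTR overlapped, and WT_CTR was below both. The log2 fold change was 0.11 against KO_CTR (SE 0.14, adjusted p = 0.589 by edgeR). Against WT_CTR Id2 rose 1.42-fold (log2 fold change 0.50, SE 0.14, adjusted p = 0.0151). That call was lost without WT_CTR replicate 1 (adjusted p = 0.0721), WT_CTR replicate 2 (adjusted p = 0.0641), KO_4OI replicate 1 (adjusted p = 0.0502) or KO_4OI replicate 2 (adjusted p = 0.0661), and without the libraries with Xist reads (adjusted p = 0.0817).

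Id3 (ENSMUSG00000007872, mm10 chr4:136143497-136145755, plus strand) had 110.2, 110.3 and 123 CPM in KO_4OI, 73.3, 121 and 73.5 CPM in KO_CTR and 44.0, 44.2 and 74.7 CPM in WT_CTR. KO_CTR replicate 2 reached the KO_4OI range, and WT_CTR replicate 3 reached that of the other KO_CTR libraries. The log2 fold change was 0.36 against KO_CTR (SE 0.23, adjusted p = 0.281 by edgeR). Without KO_CTR replicate 2 it was 0.61 and passed (adjusted p = 0.0344). Against WT_CTR Id3 rose 2.10-fold (log2 fold change 1.07, SE 0.23, adjusted p = 0.00427). Leaving out the libraries with Xist reads ended this call (log2 fold change 0.89, adjusted p = 0.056).

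Among the transcripts of Id1, Id2 and Id3, taken per kb of exon, Id1 made up 19.8% ± 3.77 in KO_4OI, 7.40% ± 0.485 in KO_CTR and 13.9% ± 1.42 in WT_CTR (SD, n = 3 each). Id3 made up the most of the sum in every group. Of the 9 tested genes of the ID family with its E-protein partners and the related MITF group, 1 passed in KO_4OI against KO_CTR, which was Id1 itself. The partners had log2 fold changes close to 0, such as -0.15 for Tcf3, which encodes the E proteins E12 and E47 (SE 0.18, adjusted p = 0.588), and 0.18 for Tfe3, a relative of MITF (SE 0.20, adjusted p = 0.561). Without KO_CTR replicate 2 the count that rose was 2.

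Of 12 tested genes of BMP and SMAD signalling, the pathway known to induce Id1, 2 rose and 3 fell. Acvrl1, which encodes the BMP9 and BMP10 receptor ALK1, had 28.1, 30.8 and 35.8 CPM in KO_4OI, 6.48, 11.7 and 7.27 CPM in KO_CTR and 3.98, 4.02 and 7.44 CPM in WT_CTR. It rose over KO_CTR by a log2 fold change of 1.90 (SE 0.27, adjusted p = 0.000194 by edgeR), and no KO_4OI library overlapped with the others. Smurf1, a ubiquitin ligase that marks SMAD1 and SMAD5 for removal, fell by 1.27 (SE 0.22, adjusted p = 0.000874). Smad6, an inhibitory SMAD and itself a BMP target, had a log2 fold change of 0.61 (SE 0.25, adjusted p = 0.0917), which passed without KO_CTR replicate 2 (log2 fold change 0.87, adjusted p = 0.00857). The count of 2 that rose was 1 without WT_CTR replicate 2, KO_CTR replicate 1, KO_CTR replicate 3, KO_4OI replicate 1 or KO_4OI replicate 2. The median log2 fold change of the list was -0.07.

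Zfp36l1 (ENSMUSG00000021127, mm10 chr12:80107754-80113013, minus strand), the RNA-binding member, had 4.88, 4.18 and 4.80 CPM in KO_4OI, 21.4, 27.8 and 14.9 CPM in KO_CTR and 14.4, 14.7 and 18.8 CPM in WT_CTR. The 3 KO_4OI libraries lay close together and far below all others, while KO_CTR and WT_CTR overlapped. Zfp36l1 fell to 0.217-fold of KO_CTR in KO_4OI (log2 fold change -2.21, SE 0.23, adjusted p = 1.34e-05 by edgeR) and to 0.289-fold of WT_CTR (log2 fold change -1.79, SE 0.23, adjusted p = 7.57e-05). This was the largest change of the 8 genes in each of these comparisons as a fold in either direction. The long non-coding gene Gm26669 overlaps its exons on the opposite strand and held 13 reads in all 9 libraries together. Whether the counting used strand is not stated in the labels.

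Zfp36l2, a close relative of Zfp36l1, had 335, 296 and 402 CPM in KO_4OI, 212, 263 and 161 CPM in KO_CTR and 203, 200.3 and 203 CPM in WT_CTR. It rose over KO_CTR by a log2 fold change of 0.70 (SE 0.17, adjusted p = 0.00909 by edgeR). Zfp36, which encodes tristetraprolin, had a log2 fold change of -0.41 (SE 0.21, adjusted p = 0.177). Per kb of exon, Zfp36l1 made up 1.30% ± 0.134 of the 3 transcripts in KO_4OI, 7.45% ± 0.517 in KO_CTR and 6.38% ± 0.615 in WT_CTR (SD, n = 3 each). Zfp36l2 made up 81.1% ± 0.637 in KO_4OI, 63.2% ± 2.33 in KO_CTR and 68.7% ± 3.60 in WT_CTR. Of 18 tested genes of this family and of mRNA decay 1 rose and 1 fell. The 1 rise, that of Zfp36l2, was lost without the libraries with Xist reads (adjusted p = 0.0612), and 2 fell without KO_CTR replicate 2.

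Levels can be compared between genes only per length, so CPM were divided by the kb of exon covered by any transcript in GENCODE vM21 and are then written as RPKM. In all groups Id3 was the highest and Irf4 the lowest. In KO_4OI the means were 63.9 RPKM for Id3, 24.9 for Id2, 22.1 for Id1, 18.4 for Irf8, 16.6 for Rbpj, 5.26 for Bcl6, 1.55 for Zfp36l1 and 0.905 for Irf4. In KO_CTR they were 49.9 for Id3, 23.1 for Id2, 9.62 for Irf8, 7.15 for Zfp36l1, 7.03 for Rbpj, 5.78 for Id1, 3.12 for Bcl6 and 1.99 for Irf4. In WT_CTR they were 30.3 for Id3, 17.6 for Id2, 9.20 for Rbpj, 7.66 for Id1, 6.16 for Irf8, 5.35 for Zfp36l1, 3.10 for Bcl6 and 1.17 for Irf4. Neighbours did not differ beyond their spread from Id2 to Irf8 in KO_4OI, from Irf8 to Id1 in KO_CTR and from Rbpj to Zfp36l1 in WT_CTR, and all other neighbours were apart. Exon lengths ran from 1160 bases for Id1 to 12750 for Rbpj, and a gene with long, little used exons is set too low on this scale.

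**Figure D3:**
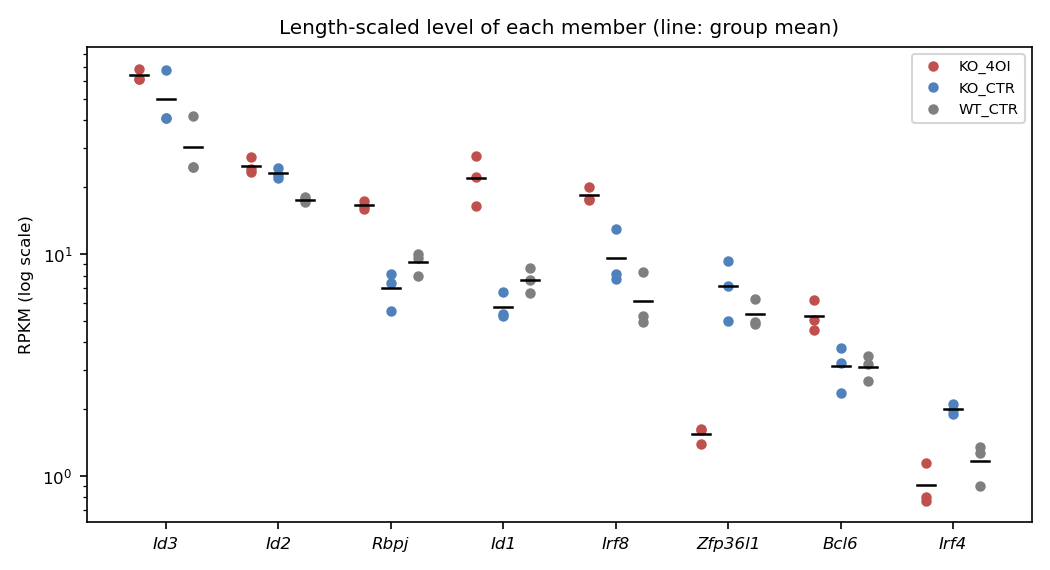
RPKM, which is CPM per kb of exon (vertical log axis), of the 8 genes in each library, ordered from the highest to the lowest mean in WT_CTR; points are libraries, with KO_4OI left, KO_CTR in the middle and WT_CTR right, and black lines are group means. Zfp36l1 is near 1.55 in KO_4OI against 7.15 in KO_CTR and 5.35 in WT_CTR, while Id1 is near 22.1 in KO_4OI against 5.78 in KO_CTR and 7.66 in WT_CTR.

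A further 12 genes have been described as restraining osteoclast formation, and 3 of them rose and 3 fell in KO_4OI against KO_CTR. Egr2, an immediate early factor that induces ID proteins in precursors, had 24.3, 28.9 and 30.9 CPM in KO_4OI, 5.16, 11.5 and 7.30 CPM in KO_CTR and 3.28, 3.46 and 4.33 CPM in WT_CTR. It rose by a log2 fold change of 1.82 over KO_CTR (SE 0.25, adjusted p = 0.000149 by edgeR), without overlap. Lilrb4a, an inhibitory receptor, rose by 1.40 (SE 0.21). Tnfaip3, the gene of the NF-κB inhibitor A20, fell by 1.45 (SE 0.14), and Tsc22d3, a glucocorticoid-induced gene, fell by 0.95 (SE 0.15). The count that rose was 6 without KO_CTR replicate 2, and 2 without KO_CTR replicate 1 or KO_4OI replicate 2.

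Of 23 drivers of osteoclast formation 4 rose and 12 fell in KO_4OI against KO_CTR, with a median log2 fold change of -0.48. Besides Prdm1, the AP-1 factors Jdp2 and Fosl2 fell by 1.73 (SE 0.18) and 1.66 (SE 0.17), and Ppargc1b, a coactivator of mitochondrial genes, fell by 1.56 (SE 0.19). Nfatc1, the master regulator that IRF8 holds down, averaged 169 ± 43.0 CPM in KO_4OI and 480.2 ± 126 CPM in KO_CTR (SD, n = 3 each) and fell by 1.51 (SE 0.21, adjusted p = 0.00015). It is named here after its values were seen. The count of 4 higher was 2 without KO_4OI replicate 1 or KO_4OI replicate 2.

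**Figure D4:**
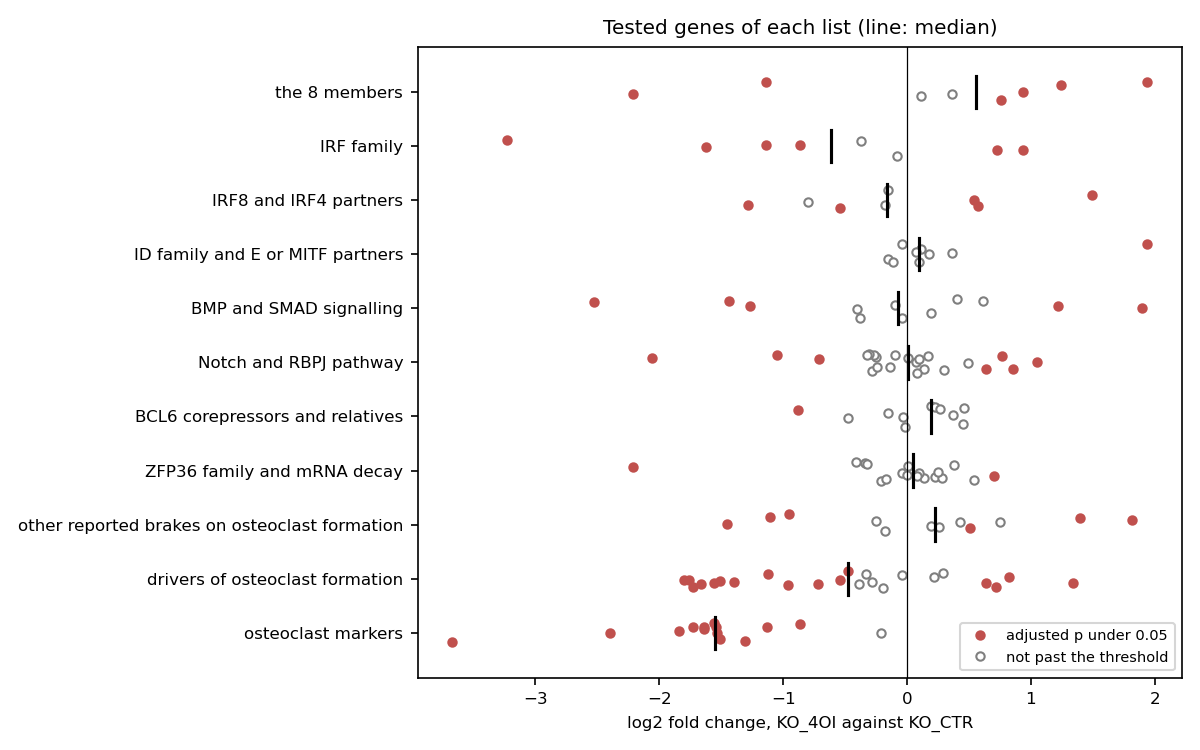
Log2 fold change of KO_4OI against KO_CTR (horizontal axis) for every tested gene of each list; filled points have an adjusted p under 0.05 and black lines are list medians. The medians are -0.48 for drivers and -1.55 for osteoclast markers, against 0.56 for the 8 genes.

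Marker genes of cell types moved in the same comparison. Of 14 osteoclast markers 13 fell, and their summed level was 10021 to 12724 CPM in KO_4OI, 30061 to 37291 CPM in KO_CTR and 26633 to 28202 CPM in WT_CTR. The sum of 14 macrophage and monocyte markers, most of it Lyz2, was 19677 to 26502 CPM in KO_4OI, 7172 to 9762 CPM in KO_CTR and 5270 to 6734 CPM in WT_CTR, with 6 markers higher and 3 lower in KO_4OI against KO_CTR. Irf8 and Id2 are also used by dendritic cells, and the 15 markers of these cells summed to 433 to 515 CPM in KO_4OI, 962 to 1629 CPM in KO_CTR and 518 to 866 CPM in WT_CTR. Most of that sum was Cd74, H2-Aa and H2-Ab1 in every library, whereas Zbtb46, Xcr1 and Clec9a stood at 4.07 CPM or less. Of the 15 markers 3 rose and 10 fell in KO_4OI against KO_CTR while Irf8 rose. The 3 that rose were Wdfy4, Clec10a and Itgax, at 93.6 to 134, 36.4 to 48.6 and 41.9 to 46.3 CPM in KO_4OI. In KO_CTR they stood at 56.6 to 77.2, 18.6 to 35.7 and 26.9 to 34.4 CPM. In bulk RNA a change in the number of cells of a type and a change in RNA per cell cannot be told apart.

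Irf4, Bcl6 and Prdm1 are also genes of B cells and plasma cells. B cell markers, 14 genes, summed to 124 to 148 CPM in KO_4OI, 109 to 152 CPM in KO_CTR and 59.6 to 91.7 CPM in WT_CTR. Most of it was Ighm in every library. Of 12 B cell markers tested, 0 were called higher and 1 lower in KO_4OI against KO_CTR by edgeR. Against WT_CTR 4 were higher and 0 lower in KO_4OI. In KO_CTR against WT_CTR 0 were called, and 10 had an unadjusted p under 0.05. Plasma cell markers, 6 genes, summed to 98.3 to 142 CPM in KO_4OI, 205 to 330 CPM in KO_CTR and 206 to 239 CPM in WT_CTR. Nearly all of that sum was Sdc1, a gene that other cells also use. Of 4 plasma cell markers tested, 0 were called higher and 1, Sdc1, lower in KO_4OI against KO_CTR by edgeR (2 at an unadjusted p under 0.05, median log2 fold change -0.25), and 1 was higher and 1 lower against WT_CTR (median 0.90). T and NK cell markers summed to 28.4 to 36.3 CPM in KO_4OI, 12.7 to 16.1 CPM in KO_CTR and 11.3 to 11.8 CPM in WT_CTR, with Gzma at 0 reads in all libraries and Cd3e and Ncr1 at 3 reads or fewer in each. Most of the KO_4OI sum was Il7r, at 25.2 to 31.9 CPM in KO_4OI, 4.65 to 7.01 CPM in KO_CTR and 5.07 to 6.76 CPM in WT_CTR. Of 5 of these markers tested, 1 was higher and 2, Trac and Cd4, were lower in KO_4OI against KO_CTR, with a median log2 fold change of -0.58. Neutrophil markers summed to 966 to 1223 CPM in KO_4OI, 759.7 to 1215 CPM in KO_CTR and 634 to 946 CPM in WT_CTR. The 12 endothelial and stromal markers stayed at 20.6 CPM or less in sum, and the 6 erythroid markers at 20.0 CPM or less. The part of these cell types in the values of the 8 genes was not tested.

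**Figure D5:**
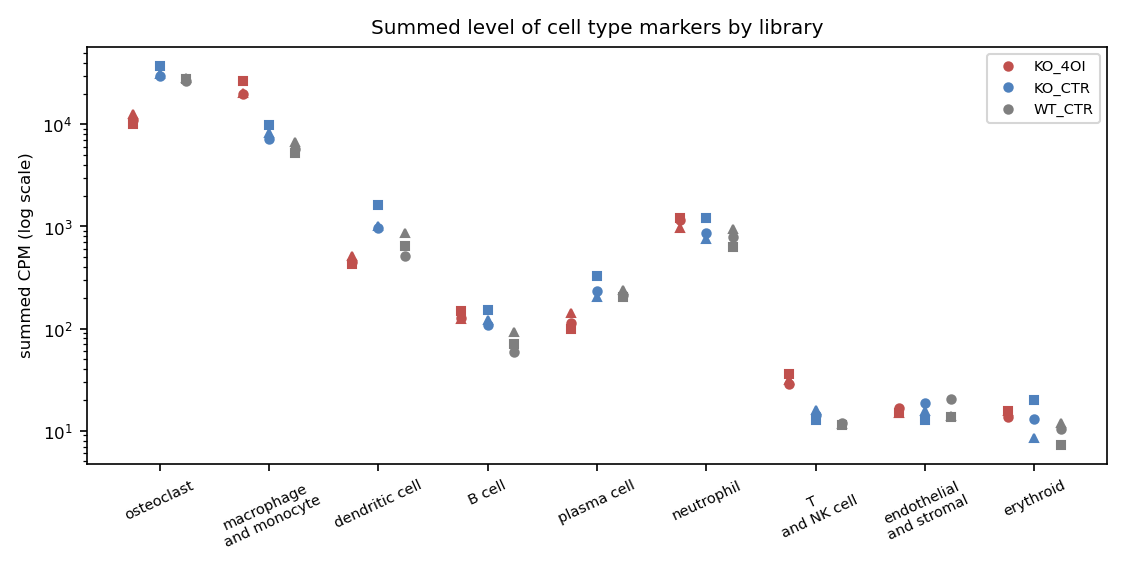
Summed CPM of the marker genes of each cell type (vertical log axis) in the 9 libraries; KO_4OI is left, KO_CTR in the middle and WT_CTR right, and circles, squares and triangles are replicates 1, 2 and 3. Osteoclast markers are lowest in KO_4OI (10021 to 12724 CPM) and macrophage and monocyte markers highest there (19677 to 26502 CPM).

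The comparison of KO_CTR with WT_CTR asked what the Acod1 KO label alone goes with. By edgeR 0 of the 8 genes passed the threshold, and 5 of the 8 had an unadjusted p under 0.05, as did 17.8% of all genes tested. Of all genes tested 0.519% passed, 0.47% as higher and 0.0491% as lower in KO_CTR. DESeq2 called 2, which were Irf4 and Id2, and limma-trend called 0. Over all genes DESeq2 called 428 as higher and 143 as lower of 14066. Irf4 (log2 fold change 0.76, SE 0.21, adjusted p = 0.103) and Id2 (log2 fold change 0.39, SE 0.14, adjusted p = 0.169) were the 2 genes whose KO_CTR libraries all lay above the WT_CTR ones, against 19.7% of all genes with no overlap in either direction. Irf8 had a log2 fold change of 0.64 (SE 0.23, adjusted p = 0.18), Id3 of 0.72 (SE 0.23, adjusted p = 0.148), Zfp36l1 of 0.42 (SE 0.21, adjusted p = 0.329), Rbpj of -0.39 (SE 0.16, adjusted p = 0.234), Id1 of -0.41 (SE 0.21, adjusted p = 0.323) and Bcl6 of 0.01 (SE 0.20, adjusted p = 0.992).

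Within their groups, 2 libraries stood apart for several of these genes at once. KO_CTR replicate 2 had the highest Irf8, Id3, Bcl6 and Zfp36l1 and the lowest Rbpj of its group, and WT_CTR replicate 3 had the highest Irf8, Id3 and Zfp36l1 and the lowest Rbpj of its group. The dendritic cell markers were highest in the same libraries, at 1629 CPM in KO_CTR replicate 2 and 866 CPM in WT_CTR replicate 3. So were the sums of osteoclast (37291 and 28202 CPM), macrophage and monocyte (9762 and 6734 CPM), B cell, plasma cell, neutrophil and erythroid markers. Between the groups 1 of the 15 dendritic cell markers passed, as higher in KO_CTR, and their median log2 fold change was 0.87. Also higher in KO_CTR were 1 of 14 macrophage and monocyte and 1 of 5 T and NK cell markers tested. Of 8 endothelial and stromal markers tested 1 was lower. The median was 0.91 for B cell, 1.15 for plasma cell, 0.57 for macrophage and monocyte and 0.10 for osteoclast markers, against -0.03 over all genes tested. The part of these cell types in the values was not tested. Without WT_CTR replicate 3, Irf8 (log2 fold change 0.97, adjusted p = 0.0475) and Id3 (log2 fold change 1.07, adjusted p = 0.0351) were higher in KO_CTR by edgeR. Of the 14578 genes tested without it, 225 passed as higher and 22 as lower. In the edgeR fit that the other values come from, no gene of the other pathway lists passed in this comparison. With no filter on low counts 5 of the 8 interferon regulatory factors, 2 of their partners and 3 of the 12 other brakes did, and with upper-quartile scaling 3 of the family and 1 partner did. Over all genes 582 passed as higher and 297 as lower of 25879 with no filter. With upper-quartile scaling these were 137 and 7 of 14264. Without 1 divergent library of each group (KO_CTR replicate 2 and WT_CTR replicate 3 among them) 5 of the family and 4 of the other brakes passed as higher. Of the 23 drivers 1 passed as higher and 3 as lower there. Over all genes 1090 of 14413 passed as higher and 597 as lower. These libraries were picked with the data known, which narrows the spread within groups, so these counts are a description only. DESeq2 called Irf1, Irf7, Irf9, Batf3, Spib, Egr2, Pirb and Tsc22d3 among those named by rule, all higher in KO_CTR. Of the interferon regulatory factors 5 of 8 had an unadjusted p under 0.05, led by Irf9 (log2 fold change 0.87, SE 0.19, adjusted p = 0.0618), Irf1 (log2 fold change 0.81, SE 0.17, adjusted p = 0.0621) and Irf7 (log2 fold change 1.45, SE 0.32, adjusted p = 0.0661). All 3 passed without WT_CTR replicate 3, with adjusted p of 0.0281, 0.0297 and 0.0291.

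KO_4OI differed from WT_CTR in 7 of the 8 genes, with Irf8, Id1, Id3, Rbpj, Bcl6 and Id2 higher and Zfp36l1 lower. Of all genes tested 24.3% passed, 12.1% as higher and 12.2% as lower in KO_4OI. The same 7 genes had libraries that did not overlap, against 41.9% of all genes. Without the libraries with Xist reads 4 genes passed, which were Irf8, Id1, Rbpj and Zfp36l1. Irf8 and Id3 stood at 67.8 and 89.3 CPM in KO_CTR, between their means of 130.1 and 114 CPM in KO_4OI and of 43.5 and 54.3 CPM in WT_CTR, whereas Irf4 was highest in KO_CTR. Among the 12 other reported brakes 6 rose and 1 fell against WT_CTR, while 3 rose without the libraries with Xist reads and 4 without WT_CTR replicate 1 or WT_CTR replicate 2. Egr2 rose by a log2 fold change of 2.92 and Lilrb4a by 1.56, and Tnfaip3 fell by 1.19.

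For each of the 8 genes, those of at least 5 CPM whose log2 CPM followed it best over the 9 libraries were listed among 9594 genes. Because the libraries form 3 groups and share their depth and scaling, these correlations describe a pattern across groups and carry no test. Irf8 was followed by Rab3d (r = 0.996), Mvd (r = 0.995) and Pf4 (r = 0.992). Irf4 was followed by Acp2 (r = 0.991), Nub1 (r = 0.979) and Tcp11l2 (r = 0.977), and Bcl6 by Bcl2l1 (r = 0.990), Diaph1 (r = 0.985) and App (r = 0.983). All of these stood highest in KO_4OI for Irf8 and Bcl6 and in KO_CTR for Irf4, as the genes they follow did. Rbpj was followed by Ralgapa2 (r = 0.997), Reep3 (r = 0.995) and D16Ertd472e (r = 0.994), and Id1 by Nek6 (r = 0.992) and Plaur (r = 0.988). Id2 was followed by Otulinl (r = 0.981), Tlr1 (r = 0.976) and Lpar6 (r = 0.975), and Id3 by Ndrg1 (r = 0.990), Flot1 (r = 0.990) and Pld4 (r = 0.989). Zfp36l1 was followed by St5 (r = 0.992), Cntrob (r = 0.990) and Ap5s1 (r = 0.990), which were lowest in KO_4OI. St5, for example, averaged 5.81 ± 1.10 CPM in KO_4OI, 40.1 ± 16.5 CPM in KO_CTR and 25.2 ± 2.92 CPM in WT_CTR (SD, n = 3 each).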

How the data were processed

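RNA of 9 libraries in 3 groups of 3 was sequenced from NEBNext Ultra libraries, per the labels' protocols. The authors deposited raw counts of reads by Ensembl gene identifier, used here as deposited. Reads went through fastp, STAR and HTSeq 0.6.1 on build mm10, per the submitters' processing notes, which name neither the annotation nor the strand setting. Of 54532 identifiers 54409 had a symbol. Genes were kept with edgeR's filterByExpr (minimum count 10), scaled with TMM and fitted over all 9 libraries by the quasi-likelihood functions of edgeR 4.0.16 in R 4.3.3, group being the only factor. Tests were two-sided, with Benjamini-Hochberg adjustment over 14264 genes. The common biological coefficient of variation was 0.179. Library totals of 24830149 to 35143629 reads set the counting error of low genes. The fit was tested on simulated data. Alternatives tried were DESeq2 1.42.0, limma-trend (limma 3.58.1), scaling by RLE or upper quartile, no filter or one at 5 CPM on average, the 2 groups alone, a replicate block, each library left out, libraries with Xist reads left out or as a covariate, and 1 divergent library per group left out (KO_4OI 2, KO_CTR 2, WT_CTR 3). Named genes are the 8, up to 4 others per pathway list and comparison with the smallest p and a mean of at least 1 CPM, and the 3 genes most like each, of which 1 is not reported here. Genes, lists and alternatives were chosen with earlier results of these data known. Promoter sequences are RefSeq's for GRCm38.p6.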

Additional observations from a re-analysis of the deposited data

How the results depend on the processing

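The 6 calls among the 8 genes in KO_4OI against KO_CTR were 5 to 7 under every alternative run, and the 7 in KO_4OI against WT_CTR were 5 to 7 with each library left out and 4 without the libraries with Xist reads. In KO_CTR against WT_CTR 0 passed, but 3 did with no filter on low counts, 2 by DESeq2, 4 without 1 divergent library of each group, and 0 to 2 with each library left out. Calls over all genes rose in the first 3 of these settings too. They went from 67 higher and 7 lower of 14264 to 582 and 297 of 25879 with no filter. By DESeq2 they were 428 and 143 of 14066, and without the divergent libraries 1090 and 597 of 14413. The libraries share only a replicate number (correlation of deviations within a number from -0.408 to 0.317), and with that number as a block 6, 7 and 0 of the 8 passed, the same counts as without it. Among the genes named by the rule the block ended the calls of Batf in KO_4OI against KO_CTR (adjusted p = 0.0645), and of Bcor (adjusted p = 0.0556) and Spi1 (adjusted p = 0.0721) in KO_4OI against WT_CTR. In KO_4OI against KO_CTR it also moved counts of lists, to 1 higher and 2 lower for BMP and SMAD signalling, 3 higher for the Notch pathway, 2 higher and 1 lower for the partners of IRF8 and IRF4, and 3 higher and 10 lower for the drivers. Bcl6 in KO_CTR against WT_CTR, at 0.01 on the log2 scale, was -0.01 by limma-trend, -0.09 without the Xist libraries, -0.05 without the divergent ones and -0.09 to 0.17 with each library left out. Id2 in KO_4OI against KO_CTR was -0.01 without the divergent libraries. The causes were not tested. With each library left out, Tfe3 ran from -0.00 to 0.40, Tfeb ran from -0.25 to 0.13 and Tfec ran from -0.05 to 0.23 in KO_4OI against KO_CTR, and Tcf12 ran from -0.42 to 0.12 in KO_CTR against WT_CTR. Of the single gene values, 12 changed sign, 47 passed the threshold only under an alternative, 39 lost it and 1666 kept both. With 3 libraries a group, the labels' silence on separate mice, and Irf4 and Zfp36l1 at 3.78 to 27.8 CPM, small differences may have been missed.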
